A study of Tetranychus urticae with 4 samples.

Results

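In females of the spider mite Tetranychus urticae, 27 of the 18217 genes on a custom array gave a signal well above background in non-diapausing females and in no probe of diapausing females. The arrays are dual-colour: RNA of diapausing mites was labelled with Cy5 and RNA of non-diapausing mites with Cy3, and both were hybridized together. A spot is well above background when the scanner software finds its signal significantly over the local background and beyond a set margin. Genes were chosen by these marks: at least 2 of the probes of a gene had the mark in Cy3 on all 4 arrays and no probe had it in Cy5 on any array. Only probes that list 1 gene were used, and the mark was averaged over the spots of a probe. These marks come from the comparison of diapausing with non-diapausing mites itself, so the ratios below are a description of the genes that were chosen, without a test.

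Both groups were whole adult females of the LS-VL strain, raised from larvae under the same diapause inducing conditions of 17 °C, 80% relative humidity and 8 h light to 16 h dark. Mites that entered diapause (DIA) made up one group and mites that did not (NON-DIA) the other, each in 4 pools of females, with 1 pair of pools per array and 4 arrays on 1 slide. Diapausing mites were always in Cy5, so what the dye and what diapause contribute cannot be told apart. In pooled whole females, fewer cells of a type and less RNA per cell also cannot be told apart. The labels call the second group non-diapausing and do not state that the females were laying eggs.

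Diapause is an arrest of development and reproduction with which mites and insects pass the winter. In Tetranychus urticae it is the adult female that enters it: it stops feeding and laying eggs, and turns orange. A female that reproduces makes large amounts of vitellogenin, the precursor of yolk.

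The 6 vitellogenin genes that the study names served as a check of the Cy3 label. All 6 were far higher in Cy3, with log2 ratios of Cy5 over Cy3 between -11.51 and -7.11 on arrays 1 to 3 and between -6.48 and -5.07 on array 4. Array 4 therefore stood apart in these genes, with the ratio nearest 0 in 6 of 6. None of the 6 belonged to the 27 genes, since Cy5 was well above background in 58 of their 60 pairs of a probe and an array. Over all genes, 67.2 to 69.5% of gene spots were well above background in Cy3 and 69.2 to 72.1% in Cy5, and no gene spot was saturated. Of 14338 genes tested with limma, 1325 were lower and 1284 higher in diapausing mites by at least 2-fold at an adjusted p under 0.05. That split became 887 lower and 2650 higher after scaling to the spike-in controls, under which the median over all genes moved from 0.10 to 0.46 (log2). It became 765 lower and 323 higher after normexp background correction and loess.

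The 27 genes were a small part of those that met the Cy3 condition of the rule. Of 17202 genes with at least 2 probes of their own, 11001 had at least 2 probes well above background in Cy3 on all 4 arrays. In 9359 of these, every probe was also well above background in Cy5 on every array. Only 27 of the 11001 had no such Cy5 signal in any probe on any array, which is 0.245% of the 11001 and 0.157% of the 17202. The mirrored rule, with Cy5 in place of Cy3, found 40 genes. None of the 27 is among the 312 genes of the 13 lists in which the study names genes (vitellogenins, cytochromes P450, peptidases, antifreeze proteins and others), so they are given here by their ids, without a name or a function.

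The mark is stricter than the presence of a signal, and "only in Cy3" holds in that sense. The 27 genes had 82 probes of their own and thus 328 pairs of a probe and an array. Cy5 was significantly above background without being well above it in 152 pairs (46.3%). In the other 176 pairs (53.7%) it was not, and the software had put a small substitute value in place of the Cy5 signal. In tetur02g08030 and tetur02g08040 Cy5 was substituted in every pair. In tetur11g03030 it was substituted in none, so its Cy5 signal was above background with each of 3 probes on each array. In all, 25 of the 27 genes had Cy5 above background in at least 1 pair. A substituted value sets the size of the ratio, so the log2 ratios are those of the software and not measured folds.

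Each of the 27 genes had a lower signal in Cy5 on each array. The median of their log2 ratios was -3.70, with array medians of -3.73, -3.73, -3.86 and -3.97 (SD 0.12), beside medians of all genes between 0.07 and 0.11. Single arrays ranged from -7.78 for tetur21g03290 to -1.58 for tetur11g03030. All 27 were among the genes that limma called lower, where 9.24% of all genes tested were. After normexp with loess 14 of the 27 were called, with a median log2 ratio of -1.02, and after normexp with median centring 17, with a median of -1.05. Since the rule used the same comparison, nothing is read from these counts. In each of the 27 the lowest Cy3 signal lay above the highest Cy5 signal, which was so for 24.2% of the genes tested. For 13 genes outside the rule the ratio was lower than for any of the 27, and 7 of the 27 were among the 100 lowest ratios. On array 4, 5 of the 27 genes had their ratio nearest 0 and 7 their lowest. The rule left out any gene with Cy5 well above background on array 4. These counts therefore cannot show whether array 4 stood apart as in the vitellogenins. Without array 4 the rule found 34 genes, of which 7 were gained.

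**Figure D1:**
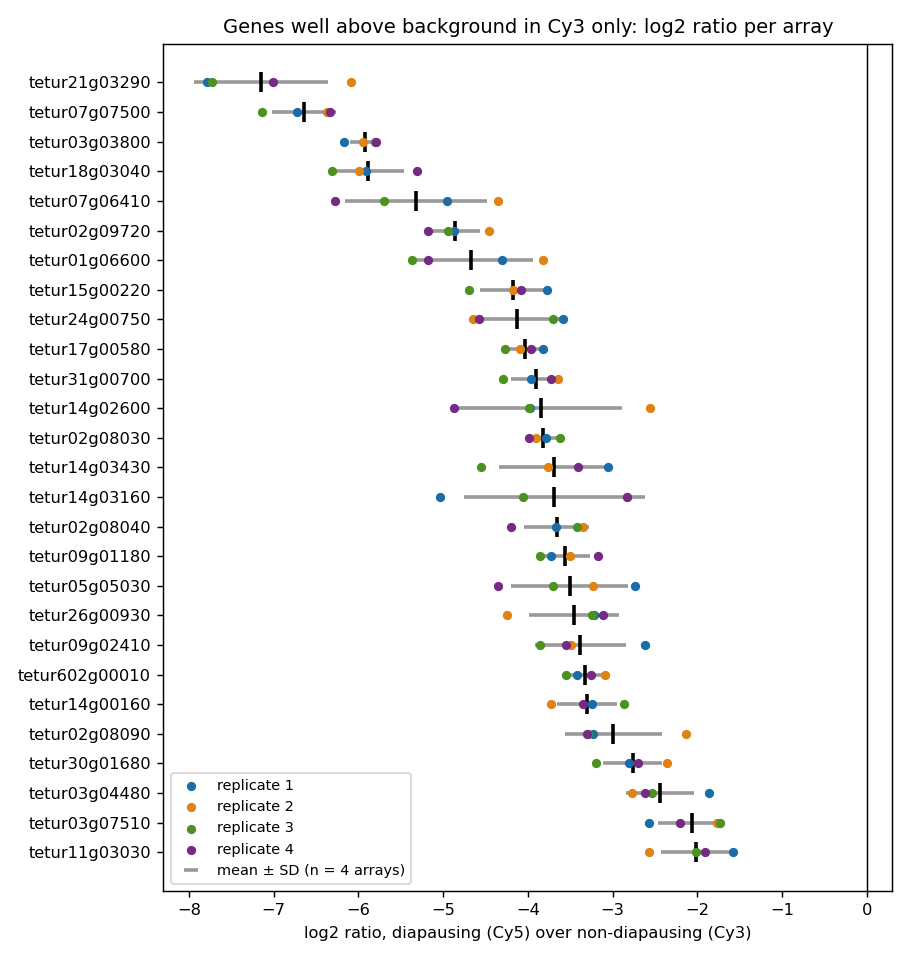
Log2 ratio of Cy5 (diapausing) over Cy3 (non-diapausing) on the x axis for each of the 27 genes, with 1 point per array, a tick at the mean and a grey bar for the SD (n = 4). Every point lies below 0, from -7.78 to -1.58, and the arrays lie farthest apart in tetur14g03160 (SD 1.07).

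The lowest ratios belonged to the genes with the brightest Cy3 spots. The gene tetur21g03290 had Cy3 signals of 2104, 1345, 2099 and 1888 on arrays 1 to 4 and Cy5 signals of 9.92, 20.2, 10.2 and 16.0. Its log2 ratios were -7.78, -6.08, -7.73 and -7.01, with array 2 nearest 0. The Cy5 signal was replaced in 1 of its 12 pairs, so that nearly all of its Cy5 values were measured above background.

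The gene tetur07g07500 had Cy3 signals of 791, 520, 1040 and 716 and Cy5 signals of 6.79, 5.78, 6.75 and 9.90. Its mean log2 ratio was -6.64 ± 0.38 (SD, n = 4). Here the Cy5 signal was a substitute in 9 of 12 pairs. The gene tetur03g03800 had Cy3 signals of 576, 658, 726 and 741 against Cy5 signals of 6.84, 11.1, 12.7 and 13.6, and a mean log2 ratio of -5.93 ± 0.18 (SD, n = 4). Its arrays lay close together, from -6.17 to -5.79. The gene tetur18g03040 had Cy3 signals of 612, 529, 631 and 629 against 10.4, 11.4, 6.91 and 14.9 in Cy5, and a mean log2 ratio of -5.88 ± 0.42 (SD, n = 4). These were the 4 genes of the 27 with a mean Cy3 signal over 500, whereas 12 of the 27 had one under 100.

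Across the 27 genes the mean log2 ratio fell with log2 Cy3 signal (Pearson's r -0.93, Spearman's rho -0.92, n = 27 genes). Both values contain the Cy3 signal, and genes are not independent replicates. The mean Cy5 signals of the 27 genes lay between 5.75 and 18.3. Probes differ in how strongly they bind, so the order of signals is no order of expression levels.

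**Figure D2:**
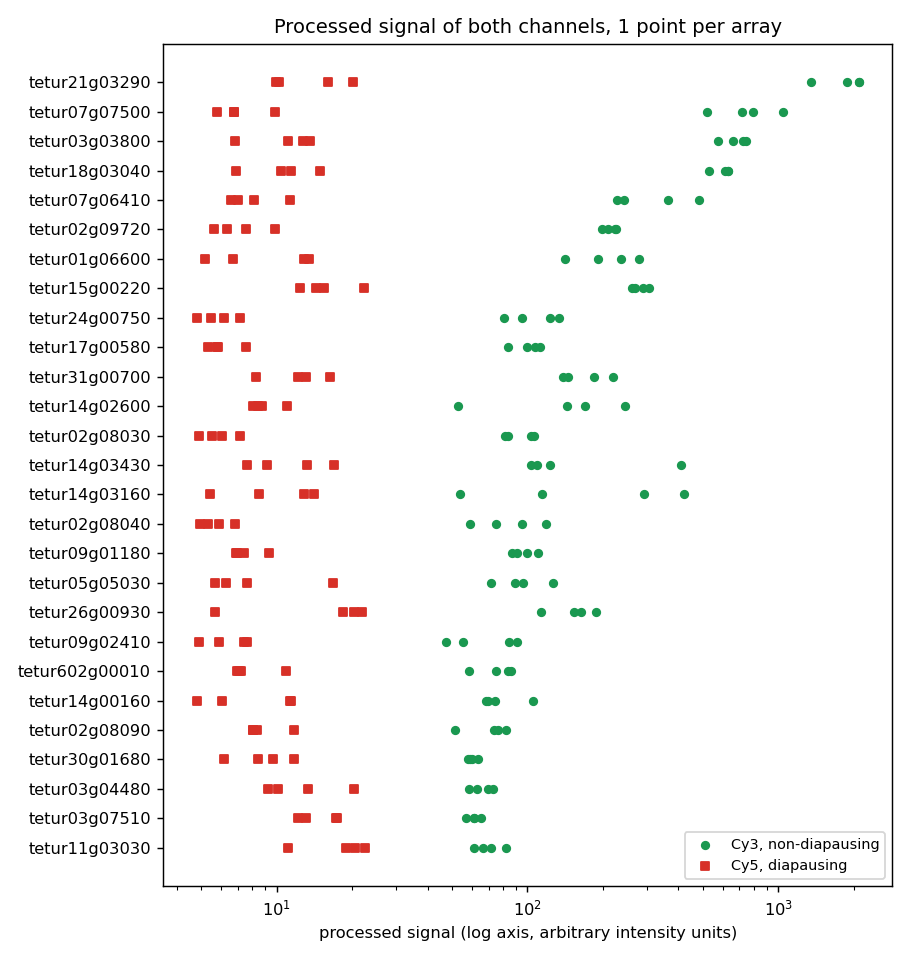
Processed signal in intensity units on a logarithmic x axis for the 27 genes, with 1 circle per array for Cy3 (non-diapausing) and 1 square per array for Cy5 (diapausing). The Cy5 values lie between 4.80 and 22.6 and the Cy3 values between 47.2 and 2104, and they overlap in no gene.

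A fold with a floor under Cy5, called the bound here, does not rest on substituted values and was far smaller. For it each channel was read separately after both had been normalized together, and Cy5 was raised to at least the lowest signal well above background on its array. On this measure tetur21g03290 was 15.1-fold higher in Cy3, tetur07g07500 6.69-fold, tetur03g03800 5.91-fold and tetur18g03040 5.27-fold. The median over the 27 genes was 1.89-fold, and 12 of them reached 2-fold. Among the dimmest genes, tetur03g07510 was 1.36-fold and tetur30g01680 1.39-fold higher in Cy3. These values are means over the arrays without their spread, so they are estimates and no guaranteed minimum. They lie close to the ratios after normexp and loess. In log2, tetur21g03290 had 3.92 here and -4.015 there, and tetur11g03030 had 0.54 and -0.54. The offset of 50 in the background correction shrinks the folds of dim spots, and with an offset of 0 the median bound was 4.99-fold.

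The 3 genes with ratios nearest 0 had dim Cy3 spots, but not every dim gene had such a ratio. With a mean Cy3 signal of 69.3 and a mean Cy5 signal of 6.46, tetur09g02410 had a mean log2 ratio of -3.38. There Cy5 was a substitute in 6 of 8 pairs. The gene tetur11g03030 had Cy3 signals of 66.6, 61.0, 82.4 and 71.5 against Cy5 signals of 22.6, 11.1, 20.5 and 18.9. Its mean log2 ratio was -2.02 ± 0.42 (SD, n = 4), with array 2 lowest at -2.57. The gene tetur03g07510 had Cy3 signals of 65.1, 61.1, 56.9 and 61.3 and a mean log2 ratio of -2.07 ± 0.40 (SD, n = 4). It had 6 probes of its own, of which only 2 were well above background in Cy3 on all arrays, and its mean over all 6 without the detection filter was -0.90, past no 2-fold threshold. The gene tetur03g04480 had Cy3 signals of 72.6, 58.6, 69.5 and 62.7 against 20.4, 9.23, 13.3 and 10.1 in Cy5, and a mean log2 ratio of -2.45 ± 0.40 (SD, n = 4). In each of these 3 genes the channels did not overlap, as in 24.2% of all genes tested, and the choice by marks in both channels favours this.

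At the edge of the rule the order of Cy5 signals depended on the measure. Of the 27 genes, tetur03g03800 had the highest background-subtracted Cy5 signal of a single probe, 26.5 on array 4, followed by tetur21g03290 with 26.4 and tetur602g00010 with 24.2 on the same array. Outside the rule, 13 genes had exactly 1 probe on 1 array well above background in Cy5, and their median log2 ratio was -2.50. The dimmest of these signals were 17.7 for tetur05g00090, 18.3 for tetur08g01980 and 19.3 for tetur02g09730, all on array 2. These background-subtracted signals lie below the 3 inside the rule, which were measured on another array. The processed Cy5 signals of the same probes had the opposite order, with 22.6, 24.7 and 21.5 inside the rule and 26.5, 29.2 and 27.9 outside it. The mean log2 ratios of these 3 genes were -3.13 ± 0.59, -1.20 ± 0.12 and -5.52 ± 0.24 (SD, n = 4). A further 33 genes without any Cy5 signal well above background had only 1 probe that met the Cy3 condition.

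The 27 genes lay on 17 scaffolds. Scaffolds 2 and 14 held 4 each, scaffold 3 held 3, and scaffolds 7 and 9 held 2 each. In the order of their ids, 1 pair of the 27 were direct neighbours, tetur02g08030 and tetur02g08040. Of the 49 neighbours of the 27 genes that could have met the rule, 4.08% were themselves among the 27, against 0.152% of the neighbours of all genes that could have met it. The share of the 27 rests on this 1 pair.

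The neighbours outside the 27 were measured with probes of their own, which had not met the rule. Of 39 such neighbours with a value in the limma fit, 13 were lower in diapausing mites (33.3%, where 9.24% of all genes tested were) and 5 were higher (12.8%, where 8.96% of all genes tested were). In all, 10 of the 27 genes had a lower neighbour outside the rule. No test was made of the difference between these shares. Whether neighbouring genes bind each other's probes was not tested, as the probe sequences were not used here.

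The pair on scaffold 2 lay in a longer stretch of low ratios. The gene tetur02g08030 had Cy3 signals of 106, 81.5, 83.3 and 103 against Cy5 signals of 7.16, 4.92, 6.07 and 5.55, and tetur02g08040 had Cy3 signals of 95.0, 58.9, 74.9 and 119 against 6.80, 4.94, 5.92 and 5.34. Their mean log2 ratios were -3.82 ± 0.16 and -3.66 ± 0.39 (SD, n = 4). On one side tetur02g08020 had -2.94 ± 1.13 (limma, adjusted p = 0.00324) and on the other tetur02g08050 had -2.62 ± 0.70 (limma, adjusted p = 0.00107). Both are outside the rule because fewer than 2 of their probes were well above background in Cy3 on all arrays. In tetur02g08020 Cy5 was also well above background in 1 pair of a probe and an array. Another gene of the 27, tetur02g08090, lay 5 ids further on, with Cy3 signals of 76.5, 51.5, 81.9 and 73.7 and log2 ratios of -3.23, -2.14, -3.30 and -3.30, of which array 2 is nearest 0. Its own neighbours were not called, with 0.01 ± 0.68 in tetur02g08080 and -0.29 ± 0.49 in tetur02g08100 (SD, n = 4). From tetur02g07950 to tetur02g08130, 14 of 17 genes had a value, 11 of these were called lower and none higher. Over all genes tested, 9.24% were lower and 8.96% higher. The 11 include the 3 genes of the rule in this stretch, whose calls follow from it. In tetur02g08010 and tetur02g08050 Cy5 was well above background in 0 pairs and lay between 4.52 and 6.37, near the substituted values. This stretch and the following 2 were chosen after their values were seen. The remaining gene of the 27 on scaffold 2, tetur02g09720, lay apart from them, with Cy3 signals of 225, 224, 198 and 209 and a mean log2 ratio of -4.86 ± 0.30 (SD, n = 4). Its neighbour tetur02g09730 had -5.52 ± 0.24 (limma, adjusted p = 3.52e-05) and missed the rule by 1 Cy5 spot on array 2.

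On scaffold 18 the gene tetur18g03040 lay among 3 of the genes the study lists as most downregulated. They were tetur18g03020 and tetur18g03050, hypothetical proteins, and tetur18g03030, listed as TEP1. Thioester-containing proteins take part in the defence against microbes in insects. The log2 ratios of tetur18g03030 were -9.25, -7.79, -8.01 and -4.63, and those of tetur18g03050 -8.53, -7.48, -7.98 and -5.07. Array 4 was thus the nearest to 0 in both, as in the vitellogenins. In tetur18g03040 the values were -5.91, -6.00, -6.31 and -5.31, so array 4 was also the nearest to 0, by less. However, its Cy5 signal was a substitute in 6 of 12 pairs, so this order rests in part on substitutes. Its probe with Cy5 above background on every array had -4.20, -3.98, -5.00 and -4.59, with array 2 nearest 0. The neighbours had far brighter Cy3 spots, up to 460131 in tetur18g03050, and their Cy5 signals were mostly well above background, which kept them out of the rule.

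On scaffold 5 the gene tetur05g05030 had Cy3 signals of 95.6, 71.9, 89.1 and 126 and log2 ratios of -2.74, -3.23, -3.71 and -4.35. Its Cy5 signal was a substitute in 10 of 12 pairs of a probe and an array, so these ratios rest in part on substitutes. The gene before it, tetur05g05020, had -2.94, -3.22, -3.53 and -4.51, and the gene after it, tetur05g05040, had a mean of -1.50 ± 0.44 (SD, n = 4). From tetur05g04980 to tetur05g05080, 10 of 11 genes had a value, 6 of these were called lower and none higher. Over all genes tested, 9.24% were lower and 8.96% higher. The 6 include tetur05g05030 itself. One of the 6 was tetur05g05000, which the study lists as the ABC transporter TuABCH-07, with -2.20 ± 0.25 (SD, n = 4). ABC transporters move lipids and other compounds across membranes.

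**Figure D3:**
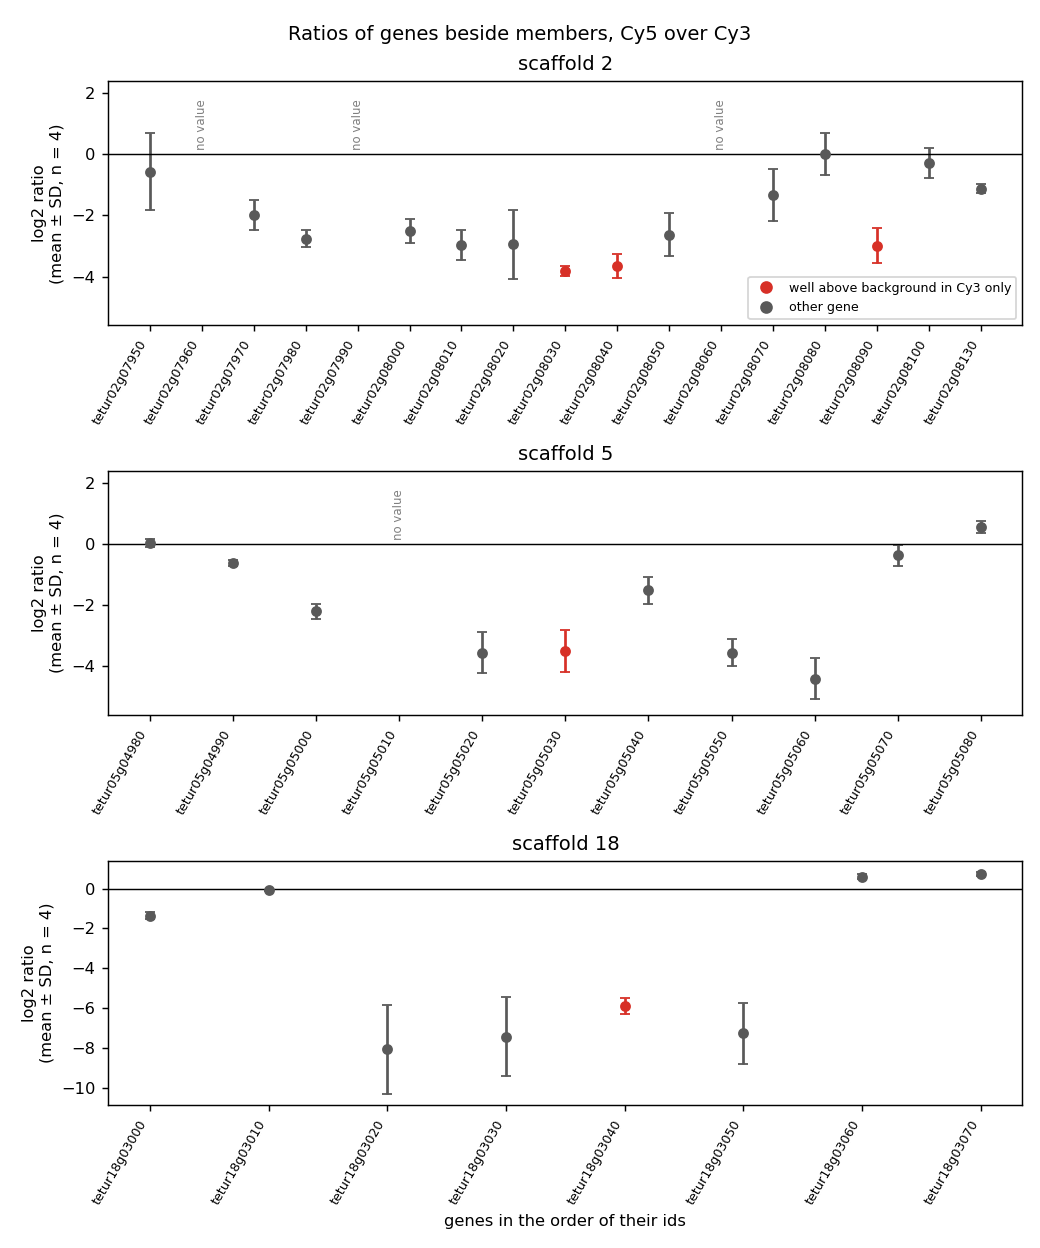
Mean log2 ratio of Cy5 over Cy3 with its SD (n = 4 arrays) on the y axis for genes in the order of their ids on scaffolds 2, 5 and 18, with the genes of the rule in red and other genes in grey. Most red points lie among other low ratios, whereas tetur02g08090 lies between 0.01 in tetur02g08080 and -0.29 in tetur02g08100.

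Neighbours could also lie on the other side of 0. The gene tetur30g01680 had Cy3 signals of 59.1, 60.2, 57.8 and 63.3 and a mean log2 ratio of -2.76 ± 0.35 (SD, n = 4), and its neighbour tetur30g01670 had 3.97 ± 0.24 (limma, adjusted p = 4.49e-05). The gene tetur15g00220 had Cy3 signals of 289, 260, 304 and 269 and a mean of -4.18 ± 0.38, beside 2.41 ± 0.77 in tetur15g00230 (limma, adjusted p = 0.00183). The gene tetur17g00580 had Cy3 signals between 83.8 and 112 and a mean of -4.04 ± 0.19, beside 1.89 ± 0.45 in tetur17g00570 (limma, adjusted p = 0.000805). These neighbours were higher in diapausing mites while the genes of the rule were lower. Beside tetur03g07510, the neighbour tetur03g07520, listed by the study as the receptor protein tyrosine phosphatase RPTP1, had 1.01 ± 0.26 (limma, adjusted p = 0.00135).

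Scaffold 14 held the 2 genes of the 27 that varied most between arrays. The gene tetur14g03160 had Cy3 signals of 421, 53.7, 292 and 114 and log2 ratios of -5.04, -2.83, -4.06 and -2.84, the widest spread of the 27 (SD 1.07). Arrays 1 and 3 were high in Cy3 and arrays 2 and 4 low. Its neighbour tetur14g03170 had a mean log2 ratio of -3.93 ± 1.13 (SD, n = 4). The gene tetur14g02600 had Cy3 signals of 170, 52.7, 143 and 244 and a mean log2 ratio of -3.85 ± 0.96, with array 2 lowest in Cy3. The gene tetur14g03430 had Cy3 signals of 123, 103, 410 and 109, with array 3 far above the others, and a mean log2 ratio of -3.70 ± 0.64. The gene tetur14g00160 varied least of the 4 genes there, with Cy3 signals of 105, 69.7, 74.5 and 68.5 and a mean log2 ratio of -3.30 ± 0.35 (SD, n = 4).

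For 4 of the 27 genes the array also holds probes that list another gene, 10 probes in all, which the rule left out. They bear most on tetur07g06410. Its own 2 probes gave Cy3 signals of 243, 227, 364 and 484 and Cy5 signals between 6.55 and 11.3, with a mean log2 ratio of -5.32 ± 0.84 (SD, n = 4). The 5 probes it shares with tetur07g06460 or tetur07g06480 were well above background in both channels on all 4 arrays, with Cy5 signals between 530 and 2535. Their mean log2 ratios were -0.68, -0.64, -0.01, 0.0049 and 0.41. With shared probes counted, tetur07g06410 no longer met the rule and its mean log2 ratio was -1.65. Which of the genes the shared probes bound was not tested.

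The other 3 genes had shared probes with low ratios. The gene tetur602g00010, the single gene of its scaffold on the array, had Cy3 signals of 74.9, 58.4, 86.4 and 84.0 and a mean log2 ratio of -3.33 ± 0.20 (SD, n = 4). It shares 3 probes with tetur05g04000, the cytochrome P450 gene CYP385B1, and these had means of -5.13, -4.47 and -4.21. One of them was well above background in Cy5 on array 4, so tetur602g00010 also no longer met the rule with shared probes counted. Cytochromes P450 oxidize hormones and foreign compounds, and CYP385B1 itself had -4.55 ± 0.44 (SD, n = 4) with 6 probes of its own, with Cy5 well above background in 20 of 24 pairs.

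The gene tetur09g02410 had Cy3 signals of 47.2, 55.2, 90.5 and 84.5 and a mean log2 ratio of -3.38 ± 0.53 (SD, n = 4). Its 1 shared probe, which also lists the neighbour tetur09g02400, gave -5.45 ± 0.58. Probes of tetur09g02400 alone gave 1.69 ± 0.69, higher in diapausing mites (limma, adjusted p = 0.00408), so the shared probe lay on the same side of 0 as tetur09g02410. The probe shared by tetur02g08090 was well above background in Cy3 on 1 array and had a mean of -2.40. It also lists tetur02g07970 and tetur02g08000, which lie in the same stretch of scaffold 2 and were called lower with probes of their own. Whether own probes in that stretch bind RNA of several of its genes was not tested.

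**Figure D4:**
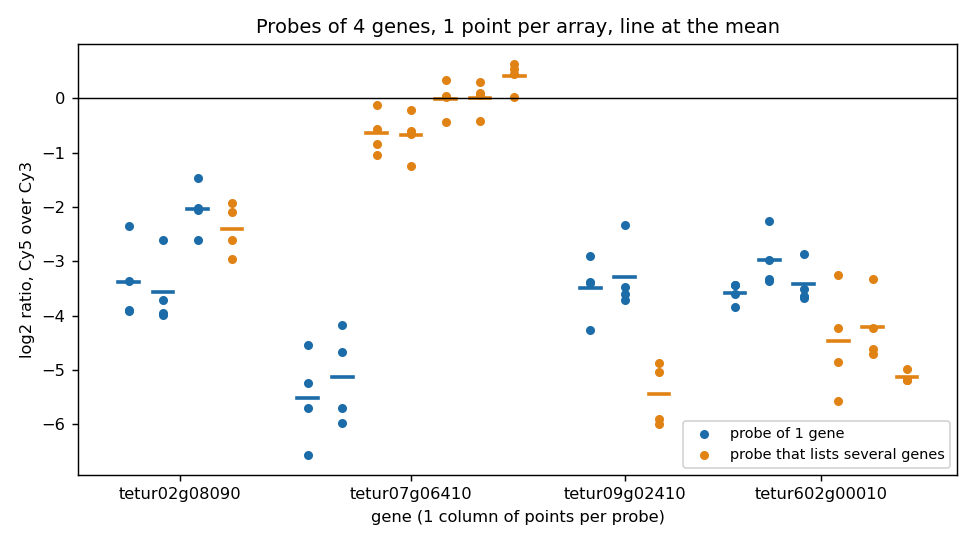
Log2 ratio of Cy5 over Cy3 on the y axis for each probe of the 4 genes that have shared probes, with 1 column of points per probe, 1 point per array and a line at the mean of 4 arrays. The 2 own probes of tetur07g06410 lie at -5.51 and -5.13 and its 5 shared probes between -0.68 and 0.41.

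Probes of 1 gene did not always give the same ratio. Of the 82 own probes, 63 were well above background in Cy3 on all 4 arrays, 8 on 1 to 3 arrays and 11 on none, and in 11 of the 27 genes every probe was on all 4. Among the probes with a value, the range within a gene had a median of 0.67 on the log2 scale and was at least 1 in 8 genes. It was widest in tetur18g03040, from -7.04 to -4.44, in tetur14g03160, from -4.61 to -2.26, and in tetur02g08040, from -4.34 to -2.37. In tetur11g03030 the probes differed by 0.0084. All 67 probes with a value had a mean below 0, but in these genes a probe could enter only through Cy3. Of the 15 own probes left out, 2 had a mean above 0, at 0.45 in tetur03g07510 and 0.34 in tetur15g00220, and neither was well above background in either channel on any array.

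The remaining genes lay between these. The gene tetur01g06600 had Cy3 signals of 236, 141, 279 and 192 and a mean log2 ratio of -4.67 ± 0.73 (SD, n = 4), with arrays 3 and 4 lowest. The gene tetur24g00750 had Cy3 signals of 95.5, 123, 81.0 and 134 and a mean of -4.13 ± 0.56, and its neighbour tetur24g00740 had -1.61 ± 0.21. The gene tetur31g00700 had Cy3 signals of 138, 145, 220 and 185 and a mean of -3.91 ± 0.29, beside -2.77 ± 0.18 in tetur31g00690. All 3 were below 0 on each array. The gene tetur09g01180 had Cy3 signals of 99.6, 86.5, 110 and 91.3 and a mean of -3.57 ± 0.30 (SD, n = 4). The gene tetur26g00930 had Cy3 signals of 163, 113, 187 and 153 against Cy5 signals of 20.4, 5.70, 21.8 and 18.4. Its log2 ratio was -4.25 on array 2 and between -3.24 and -3.11 on the others, and array 2 was lowest in both channels. Each of the 2 probes in its value had a substituted Cy5 signal on 1 array. Their Cy5 signals were lowest on array 2, at 5.22 and 6.18, so the -4.25 may rest on substitutes.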

How the data were processed

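Two-colour array files were used as deposited. The authors processed the images with Agilent Feature Extraction (10.7.1.1 in the file headers): the intensity values are processed signals after background subtraction and dye normalization, and median signals with their background, and the deposited log10 values are ratios of processed Cy5 over Cy3, converted here to log2. A deposited matrix of log2 values holds the same ratios. Gene values are means over the probes that list a single gene and were well above background in Cy3 or Cy5 on at least 2 of the arrays. Gene ratios were tested against 0 with lmFit and eBayes of limma 3.58.1 (R 4.3.3, data.table version 1.17.8) and Benjamini-Hochberg adjustment over 14338 genes. The fit was tested on simulated data. Bounds used normexp (offset 50), loess and quantile normalization of average intensities. Summaries used Python with numpy, pandas and matplotlib. The number of arrays limits the precision.

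All of the 27 genes are named, as set in the rule for named genes. The genes, lists and tests were chosen with earlier results of these data known. Alternatives were normexp with loess or median centring, the deposited matrix, spike-in scaling, other probe summaries, other detection rules, treat, separate channels without pairing, the array row, and leaving out each replicate; counting shared probes in the values and the array column were added after the data were seen. Of the genes left out of the rule by name, nothing is reported here.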

Additional observations from a re-analysis of the deposited data

Results flagged for a closer look

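Of 54 sets of 4 array values (log2 ratio and Cy3 signal of 27 genes), 4 held a value far from the other 3; chance alone flags about 1 in 20 such sets. The log2 ratio of tetur02g08090 was -2.14 on array 2, with the other arrays between -3.30 and -3.23. The log2 ratio of tetur26g00930 was -4.25 on array 2, where its Cy5 signal may be a substitute value. The Cy3 signal of tetur14g03430 was 410 on array 3, and that of tetur14g00160 was 105 on array 1. The probes that list several genes were left out of the rule and of the gene values. All 5 that list tetur07g06410 had a Cy5 signal well above background on all 4 arrays, and 2 of them had mean log2 ratios above 0, of 0.0049 and 0.41.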

How the results depend on the processing

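The 27 genes kept a mean log2 ratio below 0 in each alternative run for single genes, which the choice by marks in both channels favours. The size of their ratios moved most with the background correction. Their median was -1.02 after normexp and loess, -1.05 after normexp and median centring, -3.33 after scaling to the spike-in controls, -3.82 with the median over probes, -4.30 with the probe brightest in Cy3 and -3.82 with shared probes counted for each gene, against -3.70; leaving out 1 array gave -3.87 to -3.78. The median bound was 4.99-fold without an offset and 1.83 to 1.95-fold with 1 array left out.

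The genes among those called lower were 14 of 27 after normexp and loess and 17 after normexp and median centring, 26 without the detection filter, and 27 in each leave-one-out fit. Over all genes tested, those called lower and higher were 765 and 323 after normexp and loess, 570 and 629 after normexp and median centring, 680 and 419 with treat, and 887 and 2650 after spike-in scaling; leaving out 1 array gave 1283 to 1335 lower and 1195 to 1303 higher. Separate channels without the pairing of an array (no replicate block) gave 14, 765 and 323, as after normexp and loess. In both fits all 1088 genes past 2-fold had an adjusted p under 0.05 (limma), so the fold threshold set the calls.

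The rule found 9 genes with at least 3 probes, 28 with shared probes counted (25 of them among the 27), 31 with Cy3 on at least 3 arrays, and 27 with outlier spots left out. Without array 1, 2, 3 or 4 it found 29, 40, 27 and 34 genes. Leaving out an array can only loosen the rule, so that all 27 stayed was fixed in advance. The neighbouring pairs were 1, or 1 to 3 with 1 array left out; the 3 came without array 2. Signal over background limits the folds of dim genes.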
